A study of Mus musculus with 435 samples.

Results

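The proteasome and ubiquitin enzyme genes are the subunits, activators and assembly factors of the proteasome together with the enzymes that attach ubiquitin to proteins (E1 and E2) and the ubiquitin-specific proteases (Usp) that remove it. They were taken from the mouse liver arrays by symbol (Psma to Psmg with a number, Ube2, Usp with a number, Uba with a number), and a probe counted as a member if it was measured on at least 150 arrays. This gave 110 probes, with 8 genes represented by 2 probes each, of 13138 probes on the array measured that often. A further 20 probes with such symbols fell short of 150 arrays. The members measured least often were Usp24 and 1 of 2 Usp48 probes, on 153 arrays each, and the nearest probes below were Uba3 on 147 arrays and Psmd8 on 141.

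The series holds 435 spotted 2-colour arrays of liver from mice of strain C57 (217 arrays) or A/J (218 arrays), fed a diet high or low in fat and sampled at week 0, week 1 and weeks 3 to 11. On every array liver RNA carried Cy5, and the Cy3 channel held a pool of RNA from 10 tissues of C57 mice, of which 26% was liver, 26% kidney, 13% brown fat, 12% skeletal muscle and 2% testes. The groups compared here are C57 high-fat, C57 low-fat, A/J high-fat and A/J low-fat at weeks 1, 3 to 7 and 9 to 11, which makes 36 groups of 8 to 10 arrays. The labels state no ages, no sex and no genetic modification, do not spell out the C57 substrain, and do not say which arrays share a mouse.

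The proteasome is the main protease of the cytosol and nucleus. Its core particle is a barrel of alpha (Psma) and beta (Psmb) rings with the peptide-cutting sites inside, and its regulatory particle has a base with ATPases (Psmc) that unfold the substrate and a lid (most Psmd genes) that removes the ubiquitin tag. E1 enzymes activate ubiquitin or a related protein, E2 enzymes carry it to a ligase and its target, and Usp enzymes cut it off again. In liver this system degrades short-lived regulators, misfolded secretory proteins returned from the endoplasmic reticulum and lipid-handling proteins such as apolipoprotein B. Interferon exchanges the catalytic beta subunits for Psmb8, Psmb9 and Psmb10 and induces the activator genes Psme1 and Psme2, which serves antigen presentation.

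Each value below is the log2 of liver over the tissue pool, with each array centred on its median probe, so 0 is the level of the typical probe on that array. A value sets a gene against its own level in the pool and ranks no gene's abundance against another's. The whole liver was measured, so fewer cells of a type and less RNA per cell cannot be told apart. Signal over background is not given in the files, so the number of arrays is the only measure of precision. Of 9 hepatocyte marker genes 9 lay above 0, with a median of 1.16, while all 5 leukocyte markers lay below 0 with a median of -0.26, and the 4 muscle markers had a median of -1.92. In all, 28 arrays of week 8 and 4 other arrays correlated below 0.15 with the median of all arrays. Week 8 and these arrays were left out, and results that rest on this are also given with them. In 2 pairs of A/J high-fat arrays the columns were identical, and each pair was counted once.

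The members fall into families of unequal coverage. The core particle has 19 probes for 19 genes, the ATPases 5 probes, and the other regulatory-particle subunits 10 probes for 9 genes, of which Psmd1, Psmd2 and Psmd4 belong to the base and the rest to the lid. Activators, inhibitors and assembly factors have 11 probes for 10 genes, E1 enzymes 3 (Uba6, Uba7 and Uba1y), E2 enzymes 29 probes for 26 genes and Usp enzymes 32 probes for 29 genes. The symbol rule also took in Psmc3ip, a meiotic recombination factor that is no proteasome subunit, the pseudogene Ube2d-ps, and Ube2cbp, which encodes a ligase. Ube2d-ps and Ube2cbp are counted among the 29 E2 probes. Uba1, the main E1 of ubiquitin, Ube2m, an E2 of NEDD8, and Usp2 had no member probe. Of the 110 probes, 65 had 3 or more arrays in each of the 36 groups and values on 70% of arrays and were tested, 39 more entered a fit with a looser requirement, and 6 entered neither (Psmb10, Usp5, Usp24, Usp45, Psmg1 and 1 Usp48 probe).

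**Figure D1:**
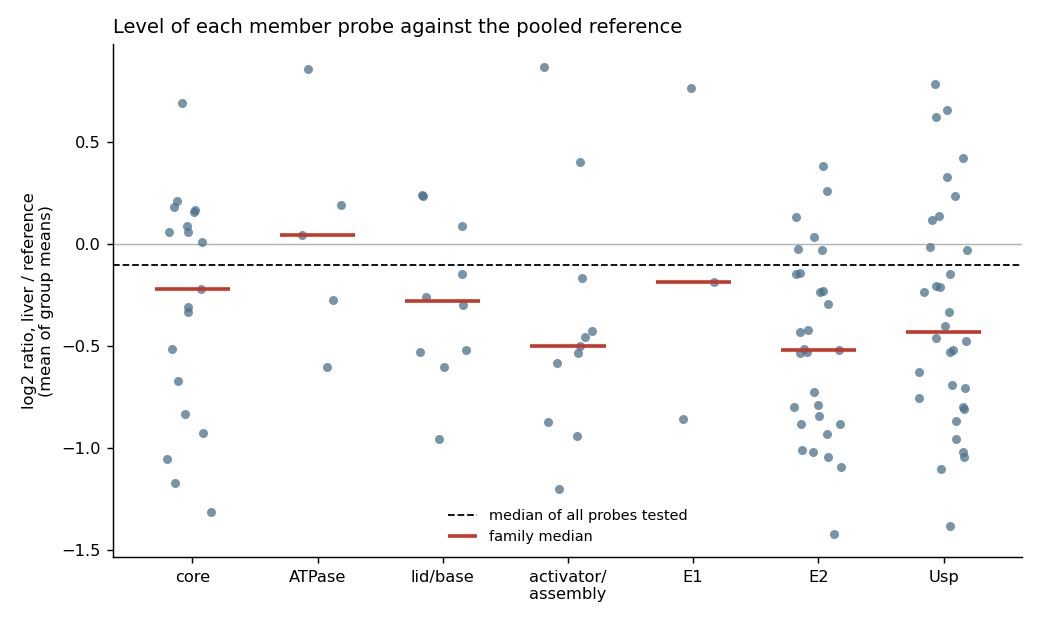
Mean log2 ratio of liver to the tissue pool for each member probe (points; the mean over its strain, diet and week groups), by family, with the family median in red and the median of all probes tested as a dashed line. The ATPase median sits at 0.044 and the E2 median at -0.52.

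Relative to the tissue pool, most members lay below 0 in liver, as did most of all probes measured as often. The median over all 110 probes was -0.41 and 30 of them (27.3%) lay above 0, against a median of -0.25 and 31% above 0 over all probes measured as often. By family the median level was 0.044 for the ATPases, -0.22 for the core, -0.28 for the lid and base subunits, -0.43 for the Usp enzymes, -0.50 for activators and assembly factors and -0.52 for the E2 enzymes, of which 4 of 29 lay above 0. The ATPase median turned to -0.0066 without centring and -0.0055 with quantile normalization, and the core median was -0.33 and -0.32, while the other medians named kept their sign.

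Some members stood above the typical probe throughout. Psma4, an alpha-ring subunit, averaged 0.69 ± 0.20 (SD over 36 groups) and lay above 0 in 36 of 36 groups. Usp47, a protease that removes ubiquitin from the repair enzyme DNA polymerase beta, averaged 0.78 ± 0.42, Usp3, which acts on histones, 0.66 ± 0.22, and Uba1y, the Y-linked copy of Uba1, 0.77 ± 0.23, each also above 0 in all 36 groups. A probe for Uba1y may also bind RNA of its near-identical X-linked copy, which was not tested. Psme2, a subunit of the interferon-induced activator, averaged 0.87 ± 0.37 and the ATPase Psmc5 0.86 ± 0.48, over the 30 groups in which each had 3 arrays.

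At the other end, subunits of the same particle lay well below 0. Psmb4, a beta-ring subunit without a cutting site, averaged -1.31 ± 0.57 over 33 groups and was below 0 in each, and the alpha-ring subunits Psma5 and Psma3 had mean levels of -1.17 and -1.05. Genes whose products are parts of 1 barrel thus gave ratios to the pool from -1.31 to 0.69. The lowest E2 was Ube2t, an enzyme of DNA cross-link repair, at -1.42 ± 0.76 over 32 groups, and the lowest Usp was Usp25 at -1.38. Usp29, expressed in testis, had a mean level of -1.10.

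Correlations between subunit genes from group to group were low. Over the 36 groups the median Pearson correlation between 2 tested core probes was 0.14 (91 pairs), between 2 lid or base probes 0.19 (28 pairs), between 2 E2 probes 0.088 and between 2 Usp probes -0.032. The median over all pairs of tested probes on the array was 0.010. These values describe groups that share a week, a reference pool, and no test was made of them.

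Probes of 1 gene were compared in the same way. In 8 genes 2 probes were members, and their Pearson correlations over the groups ran from -0.41 for Psmd11 to 0.31 for Ube2v2, with a median of -0.083. Over all 252 genes with 2 tested probes the median was 0.019. The 2 Psmd11 probes also sat on opposite sides of 0, at -0.30 and 0.24, whereas the 2 Ube2v2 probes sat at -1.02 and -1.01. Each value below is that of 1 probe, with the number of arrays where a gene has 2. For Usp9x it is the probe on 390 arrays unless the other is named.

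The first question was whether the high-fat diet altered these genes within a strain. In C57 livers no member passed the test (limma on weekly group means with a term for week, Benjamini-Hochberg adjustment over 7643 probes), while 0.196% of all probes passed, 15 in number. At an unadjusted p under 0.05 there were 3 members of 65 (4.62%), against 6.32% of all probes. The median high-fat minus low-fat difference of the members was -0.0082, against -0.00021 over all probes, and single members ran from -0.18 to 0.35.

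The highest of these was Usp47. Its 9 weekly means in C57 livers were 0.39 at the lowest, 1.04 at the median and 1.5 at the highest on the high-fat diet, against 0.13, 0.78 and 0.92 on the low-fat diet. The ranges overlapped, but within each of the 9 weeks the high-fat mean was the higher. The difference was 0.35 ± 0.085 (SE), a 1.27-fold ratio, with an adjusted p of 0.111 in limma, so it did not pass. With single arrays as the unit of replication it was 0.34 with an adjusted p of 0.00211, a fit that treats arrays of 1 week as independent.

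The families are described by counts and medians, without a test of a family. The core subunits had a median difference of 0.011, with 8 of 14 above 0, and ranged from -0.16 for Psma5 to 0.21 for Psma1, both alpha-ring subunits. The ATPases lay between -0.081 for Psmc1 and 0.072 for Psmc3. Among lid and base subunits Psmd6, a lid subunit, was highest at 0.29 (adjusted p = 0.540), and the Psmd11 probe on 378 arrays, also lid, was lowest at -0.18. Psme1 differed by 0.080, and Psmd10, an assembly chaperone also known as gankyrin, by -0.038. The E2 enzymes had a median of -0.051, with 5 of 19 above 0, and 4 of 19 both without centring and with quantile normalization. In the looser fit 9 of 29 E2 probes were above 0, and over all probes tested 49.8% were. Ube2c, the E2 of the anaphase-promoting complex, was highest at 0.17, and Ube2e3 lowest at -0.17. Among E1 and Usp enzymes the lowest were Uba6 at -0.067 and Usp26, a testis gene, at -0.13, and Uba1y lay at 0.032. Without centring, the median of all probes moved to -0.049, and with it the medians of the core, the lid and base subunits and the Usp enzymes turned to -0.038, -0.014 and -0.045.

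In A/J livers the diet test also called no member, against 0.0262% of all probes (2 probes). Here 7 members of 65 (10.8%) had an unadjusted p under 0.05, against 5.42% of all probes, with a member median of 0.022 against -0.0070 over all probes. Usp47 was again the highest, with weekly means of 0.18, 1.10 and 1.69 (lowest, median and highest) on the high-fat diet and 0.014, 0.70 and 1.36 on the low-fat diet. It was higher in 7 of 9 weeks, by 0.27 ± 0.085 (adjusted p = 0.734 in limma). The lowest member was Usp9x at -0.34 (adjusted p = 0.995), with the high-fat mean below the low-fat mean in 8 of 9 weeks.

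The other family extremes in A/J livers were as small. Psmb7, a catalytic beta subunit, was highest in the core at 0.14, and Psmb11, the thymus form, lowest at -0.17. The ATPase Psmc4 was higher in 8 of 9 weeks, by 0.13 (adjusted p = 0.898), and Psmc3 stood at -0.032. Psmd2, the largest base subunit besides Psmd1, stood at 0.24 (adjusted p = 0.820). Psme3, the activator of nuclear proteasomes, stood at 0.21 and Psmd10 at -0.030. Ube2e1 and Ube2e2, close relatives among E2 enzymes, stood at 0.23 and -0.26. The Usp enzymes had a median of 0.039, with 11 of 14 above 0, and the E2 enzymes one of -0.044, with 7 of 19 above 0. These 2 counts leaned the same way without centring and with quantile normalization. Over all probes tested 47.1% were above 0. In the looser fit 18 of 28 Usp probes were above 0, with a median of 0.026, and 11 of 29 E2 probes, with a median of -0.044.

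**Figure D2:**
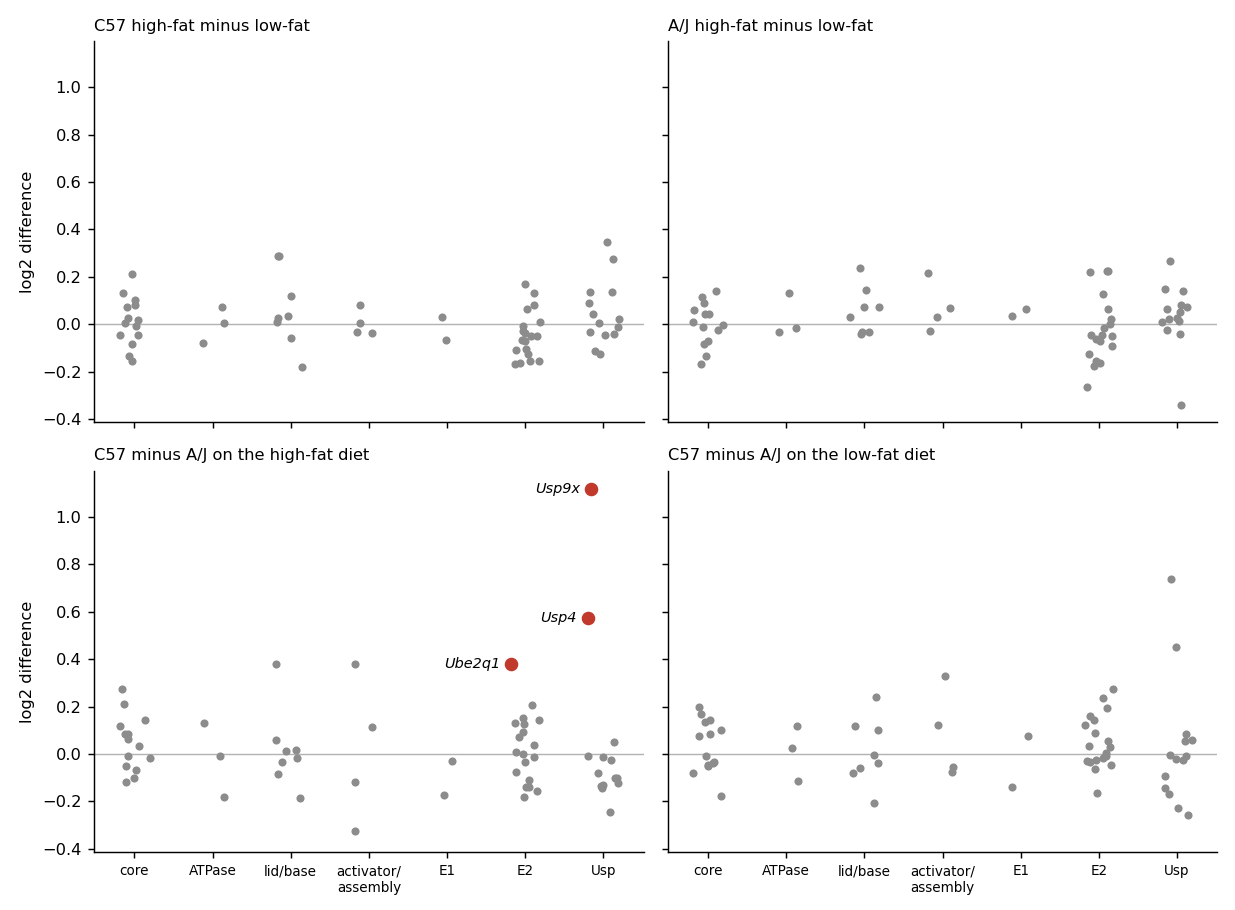
Log2 difference of each tested member probe (points) by family in 4 comparisons: the diet difference (high-fat minus low-fat) of C57 livers, that of A/J livers, and the strain difference (C57 minus A/J) under either diet. Red points passed the test, which were the 3 genes of the high-fat strain comparison at 1.12, 0.58 and 0.38.

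The strains' diet differences were set against each other directly by the interaction term. No member passed and no probe of the whole array did (0.00%), and 0 of 65 members, against 2.67% of all probes, had an unadjusted p under 0.05. The member with the highest value was Usp9x at 0.38 ± 0.31 (adjusted p = 1.00).

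The genes that interferon induces showed no diet difference past the test in either strain. Psmb8, whose weekly means in C57 livers ran from -0.40 to 0.51 on the high-fat diet and from -0.14 to 0.57 on the low-fat diet, differed by 0.13 in C57 and 0.088 in A/J. Psmb9 differed by 0.079 in C57 and 0.010 in A/J, and the constitutive catalytic subunits Psmb5 and Psmb7 by 0.019 and 0.10 in C57 and by -0.027 and 0.14 in A/J. In the looser fit Psmb6, the remaining constitutive one, differed by 0.19 and 0.14 and Psme2 by 0.15 and 0.23. Psmb10 had too few arrays for either fit, and its mean levels were 0.44 in C57 high-fat, 0.14 in C57 low-fat, -0.049 in A/J high-fat and 0.17 in A/J low-fat livers.

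The enzymes of the ubiquitin-like protein ISG15, another interferon target, had values of both signs in the looser fit, which alone held them. Ube2l6, its E2, differed by -0.25 in C57 and 0.024 in A/J, and Usp18, which removes it, by 0.019 and -0.24. Uba7, its E1, differed by -0.19 and 0.18. Usp14, a protease bound to the proteasome itself, differed by 0.0070 and 0.081. None of these passed.

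The second question was whether the strains differed. On the high-fat diet 3 of 65 members (4.62%) were higher in C57 than in A/J livers and none lower, against 3.94% of all probes called in either direction (210 higher, 91 lower), so the members were called about as often as the array as a whole. The 3 were Usp9x, Usp4 and Ube2q1, which are 2 proteases and an E2 and no proteasome subunit. The median difference of all members was -0.011, against 0.0043 over all probes.

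Usp9x, an X-linked protease with many substrates and the counterpart of the fly gene fat facets, differed most. Its weekly means in C57 high-fat livers were -2.45 at the lowest, 0.51 at the median and 1.03 at the highest, against -2.42, -0.92 and -0.54 in A/J high-fat livers. In 7 of the 9 weeks the C57 mean lay above every A/J weekly mean, and in weeks 1 and 6 each C57 array lay above each A/J array. The 2 exceptions were weeks 10 and 11, at -1.84 and -2.45 in C57 and -1.45 and -2.42 in A/J. The order was turned at week 10, with a C57 minus A/J difference of -0.39, and the strains were nearly level at week 11, at -0.030. Over the 9 weeks the difference was 1.12 ± 0.22, a 2.18-fold ratio (limma adjusted p = 0.00145), and without weeks 10 and 11 it was 1.5 (adjusted p = 8.24e-08).

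On the low-fat diet the same probe had weekly means of -2.63, 0.36 and 0.95 (lowest, median and highest) in C57 and -1.86, -0.54 and -0.15 in A/J livers. The difference of 0.74 ± 0.22, seen in 8 of 9 weeks, did not pass (adjusted p = 0.0688 in limma), and without weeks 10 and 11 it did, at 1.00 (adjusted p = 5.66e-05). Leaving out those weeks was chosen after their values had been seen. At week 0, with 16 C57 and 17 A/J arrays, the levels averaged 0.21 ± 0.66 in C57 and -0.69 ± 0.90 in A/J livers (SD), a difference of 0.89 ± 0.26 with an adjusted p of 0.0918.

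A different Usp9x probe, measured on 177 arrays, did not show this. Its C57 minus A/J difference was -0.26 on the high-fat diet (adjusted p = 0.828) and 0.029 on the low-fat diet (adjusted p = 0.990) in the looser fit, and its correlation with the more often measured probe was -0.0055 over 29 groups. Which of the probes follows Usp9x RNA was not tested.

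Ube2q1, an E2 of a small family with a long amino-terminal part, had weekly means of -0.00070, 0.65 and 1.48 in C57 and -0.24, 0.20 and 1.11 in A/J high-fat livers. The ranges overlapped widely, but the C57 mean was the higher in 8 of 9 weeks. The difference was 0.38 ± 0.084, a 1.30-fold ratio (limma adjusted p = 0.00473), and without weeks 10 and 11 it was 0.32 and no longer passed (adjusted p = 0.0604). On the low-fat diet it was 0.27 ± 0.084, again in 8 of 9 weeks, and did not pass (adjusted p = 0.0864).

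Usp4, a protease first described as a proto-oncogene product, had weekly means of -0.23, 0.84 and 1.68 in C57 and -0.47, 0.22 and 0.78 in A/J high-fat livers. In 5 of 9 weeks the C57 mean lay above every A/J weekly mean. The difference was 0.58 ± 0.14, a 1.49-fold ratio, in 7 of 9 weeks (limma adjusted p = 0.0140). It did not pass without week 1, 3 or 6 (adjusted p of 0.0533, 0.0581 and 0.0573), nor with week 8 and every array included (0.49, adjusted p = 0.274). Without weeks 10 and 11, left out after their values had been seen, it was 0.67 and passed (limma adjusted p = 0.000877). With week 8 still left out but the other arrays unlike the rest kept, Usp9x, Ube2q1 and Usp4 differed by 1.11, 0.39 and 0.60 and all 3 passed (highest adjusted p = 0.00927). On the low-fat diet the Usp4 difference was 0.45 ± 0.14 and did not pass (limma adjusted p = 0.102). It did pass there without weeks 10 and 11, at 0.69 (adjusted p = 0.000906), and with quantile normalization, at 0.47 (adjusted p = 0.0302). Of the 9 low-fat fits without a single week, 1 passed, that without week 11 (0.60, adjusted p = 0.00774).

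**Figure D3:**
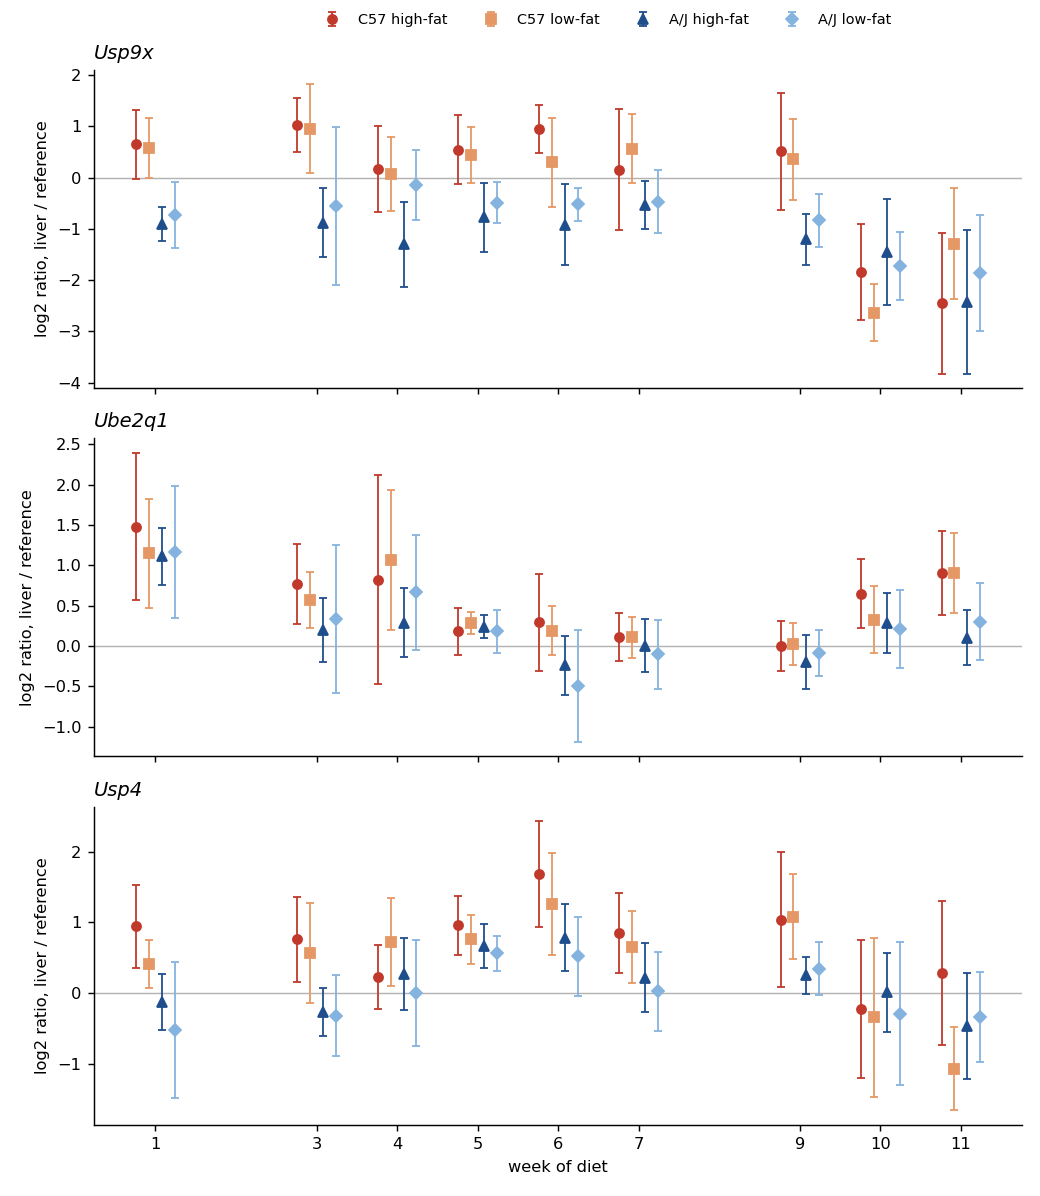
Weekly mean log2 ratio of liver to the tissue pool for Usp9x, Ube2q1 and Usp4 at weeks 1, 3 to 7 and 9 to 11 in C57 high-fat (red circles), C57 low-fat (orange squares), A/J high-fat (dark blue triangles) and A/J low-fat (light blue diamonds) livers, with bars of 1 SD over the arrays. Usp9x lies above in C57 until week 9 and is low in all 4 arms at weeks 10 and 11, between -2.63 and -1.29.

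The start regions of Ube2q1 and Usp4 are shown because these are called genes and the data concern the level of their RNA. They come from RefSeq on GRCm38.p6, a C57BL/6J genome, and run from 250 bases before to 50 bases after the annotated start, both on the plus strand. Capitals mark GGGCGG, the GC box bound by Sp1-type factors, searched on both strands. The A/J sequence is not used here.
Ube2q1, chr3:89773359-89773658: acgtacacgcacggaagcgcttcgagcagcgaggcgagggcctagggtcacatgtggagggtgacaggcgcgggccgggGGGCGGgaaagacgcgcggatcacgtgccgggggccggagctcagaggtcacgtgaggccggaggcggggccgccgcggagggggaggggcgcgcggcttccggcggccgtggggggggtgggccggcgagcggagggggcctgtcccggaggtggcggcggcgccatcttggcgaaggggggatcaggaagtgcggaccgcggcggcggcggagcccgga
Usp4, chr9:108347581-108347880: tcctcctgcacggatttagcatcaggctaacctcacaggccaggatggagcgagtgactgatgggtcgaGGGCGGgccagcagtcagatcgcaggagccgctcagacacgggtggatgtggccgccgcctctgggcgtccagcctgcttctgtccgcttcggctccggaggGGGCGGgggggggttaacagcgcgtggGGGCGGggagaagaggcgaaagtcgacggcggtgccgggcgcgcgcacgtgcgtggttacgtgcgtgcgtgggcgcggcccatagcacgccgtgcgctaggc
The Ube2q1 region holds 1 GC box at 77.3% G and C, and the Usp4 region 3 at 69.7%. In the RefSeq table, a GC box was found in 56 of 92 member start regions (60.9%), against 35.7% of all 32851 regions of that length, and the members' median content of G and C was 62%, against 52.7%. TGACNNNGC, the core of the antioxidant response element, was in neither of the printed regions and in 16 member regions (17.4%), against 12.4% of all. It was in 4 of 28 proteasome regions (14.3%). A match describes letters only.

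The 5 members nearest to the threshold below it were Psme1, Usp32, Psmd4, Psme3 and Psmb9. Psme1, whose weekly means in C57 high-fat livers ran from -1.40 to 0.68 and in A/J high-fat livers from -1.69 to 0.67, differed by 0.38 ± 0.13 in 8 of 9 weeks (adjusted p = 0.0932), and by 0.33 on the low-fat diet (adjusted p = 0.239). Psmb9 differed by 0.21 on the high-fat diet (adjusted p = 0.215), and Psmd4, the ubiquitin receptor of the base, by 0.38 (adjusted p = 0.187). In the opposite direction Psme3 stood at -0.32 (adjusted p = 0.188) and Usp32 at -0.24 (adjusted p = 0.139). None of these passed in this limma fit. Psme1 did pass on the high-fat diet without weeks 10 and 11 (0.49, limma adjusted p = 0.00786), a choice made after their values had been seen. It also passed without week 11 alone (0.45, adjusted p = 0.0263), but not without any other single week. On the low-fat diet Psme1 passed without week 10 alone (0.445, adjusted p = 0.0350). Calls under other normalizations and replicate units are given in the closing section. Of the other interferon-induced members, Psmb8 differed by 0.036, and in the looser fit Psme2 by 0.026, Ube2l6 by -0.36 and Uba7 by -0.41, none past the test. The looser fit called the same 3 genes, against 2.25% of its probes. Among the tested Usp enzymes 3 of 14 were above 0 in this comparison, with a median of -0.091, although the 2 Usp genes that passed were both higher in C57. Over all probes tested 51.2% were above 0. In the looser fit 11 of 28 Usp probes were, with a median of -0.020.

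On the low-fat diet the strain test called no member, against 2.39% of all probes, and 10 of 65 members (15.4%) had an unadjusted p under 0.05, against 11.7% of all probes. The number passing moved between 0 and 3 with the normalization and filter, as given in the closing section. In the looser fit, which called 1.26% of 12545 probes, Psmf1 was the 1 member that passed. Psmf1 encodes an inhibitor of the core particle in the test tube, known as PI31. Its weekly means in low-fat livers ran from -0.29 to 0.37 in C57, against 0.16 to 1.78 in A/J. The ranges overlapped, and the C57 mean was the lower in all 7 weeks measured, by 0.73 on the log2 scale (difference -0.73 ± 0.15, adjusted p = 0.00880). On the high-fat diet it was -0.54 (adjusted p = 0.0604).

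At week 0 the strain test called none of 42 members, against 1.35% of 5414 probes, and 4 (9.52%) had an unadjusted p under 0.05 in limma, against 12.4% of all probes. Of the cell type markers, 4 of 9 hepatocyte genes passed in the high-fat strain comparison, 2 higher and 2 lower in C57, with Ahsg at 0.54 the furthest (adjusted p = 0.00839), and none of the 5 leukocyte genes did. Their part in the member differences was not tested.

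The third question was how the families ran over the weeks. No member followed a straight line past the test, against 4.00% of all probes (78 upward, 228 downward), and 13 of 65 members (20%) had an unadjusted p under 0.05, against 24.1% of all probes. The nearest were Usp27x at 0.085 ± 0.022 per week and the Ube2j2 probe on 382 arrays at 0.066 ± 0.017, both with an adjusted p of 0.0505 in limma, Usp9x at -0.19 ± 0.049 (0.0511) and Usp32 at -0.11 ± 0.029 (0.0585). Usp27x is an X-linked protease and Ube2j2 an E2 of the endoplasmic reticulum membrane. For Usp9x the slope without weeks 10 and 11 was -0.024 (adjusted p = 0.615).

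The weekly medians of the families are given as a description, and a shared course was not tested. The core was lowest at week 4, at -0.17, and highest at week 7, at 0.11. The lid and base subunits were lowest at week 1, at -0.44, and highest at week 9, at 0.12. The E2 enzymes ran between -0.51 at week 11 and -0.13 at week 9, and the Usp enzymes between -0.19 at week 4 and 0.11 at week 5. Averaged over the weeks, the core median was -0.0067 ± 0.11 in C57 high-fat, -0.045 ± 0.13 in C57 low-fat, -0.044 ± 0.074 in A/J high-fat and -0.088 ± 0.060 in A/J low-fat livers (SD over 9 weeks). The averages span less than the weeks do. Each average is itself a mean over 9 weeks, so the spans do not rank week against strain or diet. The labels give no hybridisation date, so week and any batch of arrays cannot be told apart.

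**Figure D4:**
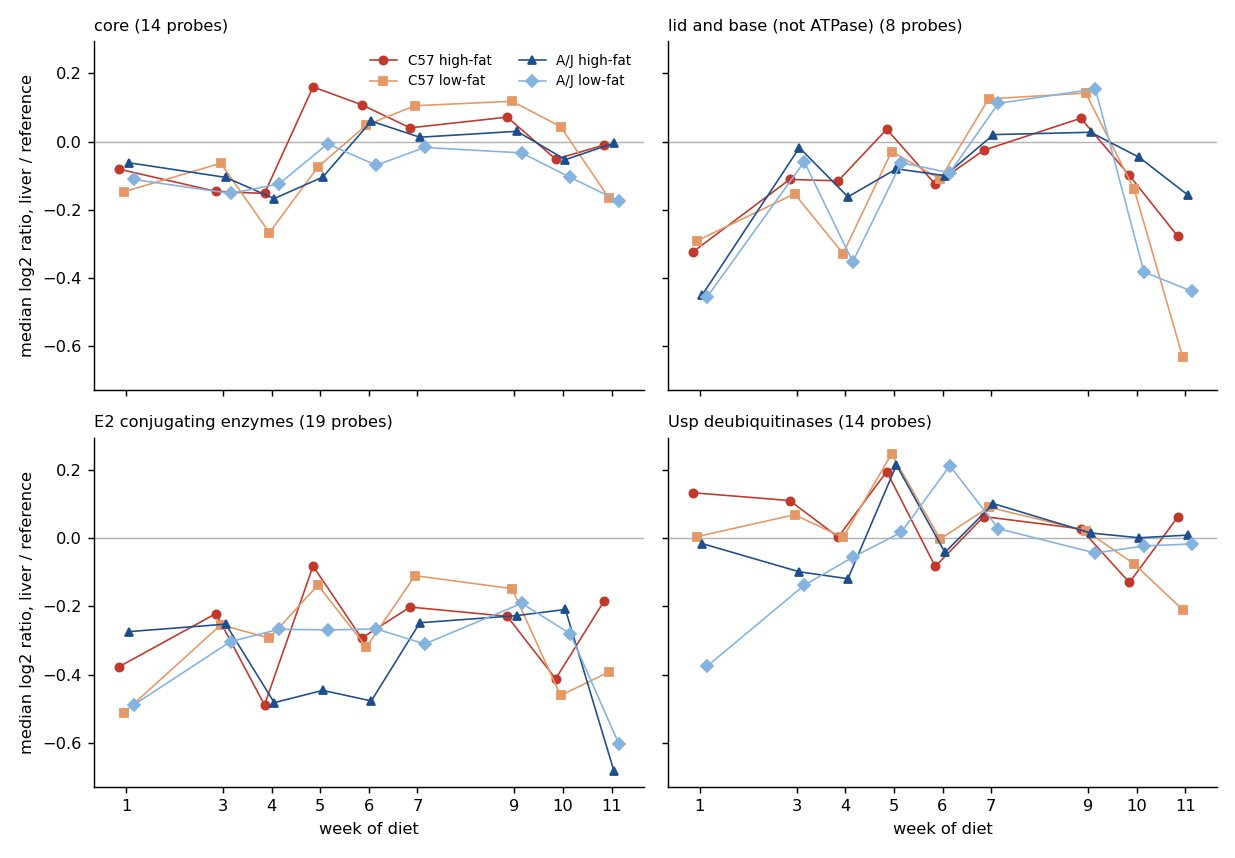
Median log2 ratio over the tested probes of the core (14), the lid and base (8), the E2 enzymes (19) and the Usp enzymes (14) at each week, for C57 high-fat, C57 low-fat, A/J high-fat and A/J low-fat livers. The core averages over weeks lie between -0.088 and -0.0067, and the E2 averages over weeks lie between -0.37 and -0.28.

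Diet was also compared within each strain and week on single arrays, where the error is the array-to-array spread within a group, which may be partly technical. Members passed in A/J livers at week 4 alone, where 2 of 78 did, against 1.58% of 9368 probes. In the 17 other combinations of strain and week after week 0 no member of the 38 to 99 tested passed, and 1 to 9 had an unadjusted p under 0.05 in limma, a level that 2.58% to 15.3% of all probes reached. Of all probes, 0.00930%, 0.176%, 0.00852% and 0.0125% passed in C57 at weeks 5, 6, 9 and 10, 0.0571% in A/J at week 6 and 0.00% in the rest. A direct test of week 4 against the other weeks was not made.

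Both week 4 members were lower on the high-fat diet. Ube2v2 encodes an E2-like protein without a catalytic cysteine that pairs with Ube2n to build ubiquitin chains used in signalling. Its probe on 341 arrays read -2.76 at the lowest, -2.0 at the median and -0.95 at the highest on 8 high-fat arrays, against -1.86, -0.58 and 0.27 on 9 low-fat arrays. The groups overlapped, and the difference was -1.32 ± 0.30 (limma adjusted p = 0.0297). The other Ube2v2 probe, on 306 arrays, read -2.48, -1.35 and -0.49 on the high-fat diet and -1.32, -0.62 and 0.20 on the low-fat diet, 9 arrays each, a difference of -0.70 ± 0.24 that did not pass (adjusted p = 0.111).

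Ube2cbp, which encodes a ligase found as a partner of Ube2c and is therefore not an E2 itself, read -2.63, -0.99 and -0.42 on 9 high-fat arrays, against -0.92, -0.21 and 0.38 on 9 low-fat arrays. These ranges overlapped as well, with a difference of -0.97 ± 0.25 (limma adjusted p = 0.0480). Neither call held when consecutive sample numbers were averaged or with the sample number as a block. Leaving out single arrays moved the count of members called between 0 and 6. All probes called in these 20 fits numbered 53 to 329. Ube2v2 passed in 12 of the 20 fits and Ube2cbp in 4. The count of members was 0 without high-fat sample 35, 38 or 40 or low-fat sample 32 or 36, 1 without high-fat sample 34, 36 or 37 or low-fat sample 34, 37 or 39, and 4 to 6 without high-fat sample 32 or low-fat sample 30 or 31. Among the members just short of the threshold, Usp50 at -1.49 and Psma8, a testis alpha subunit, at 1.20 both had an adjusted p of 0.0567, Psmf1 was at -0.77 (0.0508) and Usp9x at -1.17 (0.0538).

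**Figure D5:**
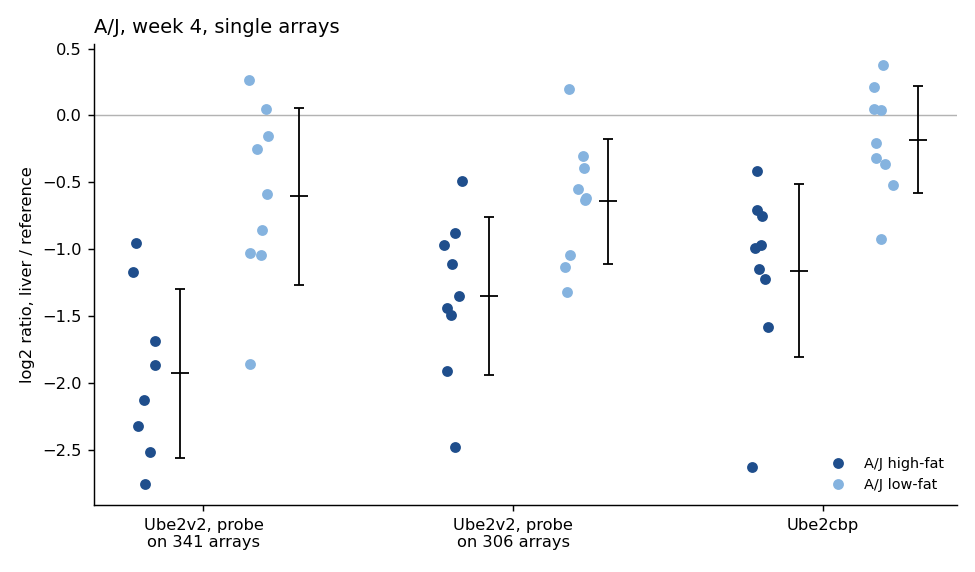
Log2 ratio of liver to the tissue pool on each array (points) of A/J livers at week 4, high-fat left and low-fat right, for the Ube2v2 probe on 341 arrays, the Ube2v2 probe on 306 arrays and Ube2cbp, with the mean and 1 SD. The high-fat mean is lower for each probe, at -1.93, -1.35 and -1.16, and the groups overlap in each.

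The rest of the pathway, taken from lists of genes outside the members, was as quiet in the diet comparisons. Ubiquitin and ubiquitin-like genes (4 tested), ligases and cullins (21), the COP9 signalosome (2), p97, retrotranslocation and shuttle factors (10), other deubiquitinases (9), further regulators of the proteasome (6) and interferon and antigen presentation genes (8) gave 0 calls in either strain. Their median differences lay between -0.064 and 0.016 in C57 and between -0.081 and 0.019 in A/J. In the strain comparisons, which called 3.94% (high-fat) and 2.39% (low-fat) of all probes, 1 listed gene passed: Wwp2, a HECT-type ligase, was higher in C57 by 0.48 on the high-fat diet (adjusted p = 0.00569 in limma) and by 0.39 on the low-fat diet (adjusted p = 0.0499). Over the weeks, where 4.00% of all probes passed, 1 did: Cul1, the cullin of SCF ligases, rose by 0.10 per week (adjusted p = 0.0313). Pomp, the chaperone of core assembly, was 0.32 in the low-fat strain comparison (adjusted p = 0.0703) and did not pass.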

How the data were processed

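The members and gene lists were chosen with earlier results of these data known. The values that the authors deposited for each array are other than counts or log values: linear ratios of Cy5 over Cy3 in which every array's mean over its measured probes is 1. Scale, scaling and direction were read from the values, and image analysis, spot filters and normalization are not given in the sources used here. Of the deposited values 0.251% were below 0 and 0.271% equal to 0 and were treated as not measured, and 42.4% of cells were empty. The log2 of positive ratios was taken with no pseudocount, and each array was centred on its median over the tested probes. Gene names came from the array's probe table, updated through a RefSeq gene table of GRCm38.p6.

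The 2 identical pairs counted once left 433 arrays, of which 350 in 36 groups entered the fits. A mean per group was the unit of the fit in limma 3.58.1 (R 4.3.3), with 4 strain and diet levels and a term for each of 9 weeks, so a week is the replicate. For the slope the 4 group means of each week were averaged. A straight line was then fitted to the 9 weekly means, with no term for strain or diet. The threshold was an adjusted p of 0.05. Named genes were the members that passed, the highest and lowest of each family in each diet contrast, and fixed lists of catalytic, interferon-induced and ISG15 genes. The method was tested on simulated data. Alternatives changed the centring, filter, weeks, replicate unit and replicate block. The labels do not say that arrays of a group are separate mice. Sample numbers recur across groups. Deviations from the group mean had a mean correlation of 0.010 between same-numbered arrays of a week, against -0.00070 between other arrays. Of the 481 same-numbered pairs 127 had a correlation above 0.1. The share among other pairs was not computed, so whether some arrays are paired cannot be told.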

Additional observations from a re-analysis of the deposited data

Results flagged for a closer look

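In 22 sets of values a search was made for a value far from the rest of its set, and 2 were found. Chance flags about 1 in 20 groups. Some sets held the weekly means of an arm, and others held single arrays of the same week. The 2 values found were weekly means, each set against the other weeks of its arm. Usp9x in A/J high-fat livers at week 11 had a mean level of -2.42, with the nearest other week at -1.45, and the gap was 0.516 of the range against a critical value of 0.493. Ube2q1 in A/J high-fat livers at week 1 had a mean level of 1.11, with the nearest other week at 0.29, a gap of 0.607 of the range.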

How the results depend on the processing

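Among the single genes recomputed under the alternatives, no difference was reversed. The signs of all 65 tested members were not followed one by one. Without centring, the number of them above 0 went from 32 to 19 in the C57 diet comparison. In the low-fat strain comparison it went from 32 to 48, so members near 0 did change sign. Family medians near 0 that turned with the scaling are given with the levels and the C57 diet comparison. Of the recomputed values of single genes 191 kept their side of the threshold, 32 gained it and 34 lost it. The members called for diet were 0 in both strains and for the interaction under every alternative, except 1 (Usp47) in C57 with single arrays as replicates, where 116 of all probes were called against 15, and 1 with a replicate block, where fewer than 116 were. In the high-fat strain comparison, where 3 were called, the count was 5 with quantile normalization, 8 with single arrays, 7 with the replicate block and 0 of 24 tested with all 10 weeks and every array, beside 403, 769, 711 and 55 of all probes, against 301. Psme1, higher in C57, and Usp32, lower, were added under the first 3 of these. Psmd4, higher, and Uba1y, lower, were added with single arrays and the block, and Psmb9, higher, with single arrays. Leaving out each week gave 2 to 4 members and 230 to 273 probes. In the low-fat strain comparison, where 0 were called, it was 1 without centring, 3 with quantile normalization, 1 with the looser filter, 1 with the stricter filter, 3 with single arrays, 3 with the replicate block, 2 without weeks 10 and 11 and 0 to 2 without each week, beside 178, 281, 158, 173, 424, 435, 137 and 123 to 184 of all probes, against 183. For the slope, where 0 were called, it was 1 without centring, 4 with quantile normalization, 3 with the stricter filter, 4 without weeks 10 and 11 and 0 to 5 without each week (5 without week 5, 3 without week 9), beside 172, 589, 257, 238 and 0 to 673 of all probes (673 and 294), against 306. At A/J week 4, where 2 were called, it was 4 without centring, 0 with consecutive samples averaged, 0 with the replicate block and 0 to 6 without each array, beside 152, 2, 3 and 53 to 329 of all probes, against 148. The causes were not tested. The leaving out of weeks 10 and 11 and of single week 4 arrays was chosen after seeing the data. Usp4 did not meet the stricter filter, Usp9x and Ube2q1 could not be fitted with all 10 weeks, and the slope had no fit on single arrays. Signal over background, which would limit the dim members, is not in the files.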
